A study of Mus musculus with 27 samples.

Results

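Embryoid bodies of a mouse induced pluripotent stem (iPS) cell line were compared with those of an embryonic stem (ES) cell line after 5 days of spontaneous differentiation. The iPS line was 19BL, reprogrammed with 4 transcription factors and called 4F here. The ES line was R1. Each was represented by 3 arrays, which gives 6 of the 27 arrays of the series, and the arrays were chosen by line and day from their titles. The other arrays held the same lines at days 0 and 11 and a second iPS line, H9, reprogrammed with 3 factors and called 3F here, at all 3 days. Before differentiation every line had been kept on mitomycin-inactivated feeder cells in ES cell medium with leukemia inhibitory factor (LIF), and embryoid bodies formed in serum-containing medium without LIF. Each condition is a single cell line, so a difference between 4F and R1 is a difference between 19BL and R1 and cannot be told apart from a property of either clone. The titles call the replicates biological without naming their source.

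An embryoid body is an aggregate in which pluripotent cells, once LIF is withdrawn, leave the naive state, pass through a stage like the epiblast of the early embryo, and then form cells like those of the primitive streak, mesoderm and endoderm. Nodal, Wnt, fibroblast growth factor (FGF) and bone morphogenetic protein (BMP) signals drive these steps. Lateral mesoderm expresses receptors such as Kdr and Pdgfra, and the heart and blood lineages arise from it under transcription factors of the Gata, Hand and Tbx families. The title of the series names the heart-forming potential of iPS lines as its subject.

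Values are log2 intensities after robust multi-array averaging (RMA), 1 probe set per gene, for 18193 genes. Array medians lay between 5.91 and 6.1, and 2 replicates of a group differed with a median standard deviation (SD) of 0.315 over genes. The replicate 3 arrays of both day 5 groups stood apart from their partners. Along the first principal component of all 27 arrays the 4F arrays scored -43.5, -44.2 and -19.3 and the R1 arrays -1.53, 8.49 and 29.2, and the fit's estimated array weights were 0.509 for 4F replicate 3 and 0.574 for R1 replicate 3. Results are therefore also given without 4F replicate 3. The 3′ minus 5′ signal of the Actb and Gapdh control probe sets, a measure of RNA integrity, was 1.71, 1.55 and 1.59 in 4F and 1.78, 1.93 and 1.28 in R1, so the groups overlapped.

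The cell types in the aggregates were checked by markers, as the mean log2 level of each list in each array. Markers of pluripotent or epiblast cells averaged 11.2 to 11.8 in 4F and 8.47 to 10.6 in R1 at day 5, and 5 of the 9 were higher in 4F. Primitive streak and mesoderm markers averaged 7.23, 7.31 and 10.9 in 4F replicates 1, 2 and 3 and 9.86 to 11.2 in R1. The streak marker T was not measured here. Definitive endoderm markers averaged 6.58 to 7.02 in 4F and 8.30 to 9.01 in R1. Visceral endoderm markers averaged 7.65 to 8.17 in 4F and 7.33 to 7.56 in R1, and 1 of the 6 was higher. Fibroblast and feeder markers averaged 5.99 to 6.17 in 4F and 5.83 to 7.53 in R1 at day 5, against 9.29 to 10.3 and 9.0 to 9.67 at day 0, and 0 of the 7 passed the test between the lines at day 5. These levels were thus lower at day 5 than at day 0 in both lines, and the part of feeder cells in the results below was not tested. Immune cell markers averaged 6.21 to 6.29 in 4F and 6.02 to 6.27 in R1.

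At day 5, 421 genes were higher and 571 lower in 4F than in R1 embryoid bodies, which is 2.31% and 3.14% of the genes tested and 5.45% together. A gene is called higher or lower here where limma's adjusted p was below 0.05 and the difference at least 2-fold, which is 1 on the log2 scale. The median difference over all genes was 0.028. In 6371 genes (35%) the 3 4F arrays lay wholly above or below the 3 R1 arrays, and 905 of the 992 called genes were among them. Without 4F replicate 3 the counts were 600 higher (3.3%) and 820 lower (4.51%), and 411 of the 421 and 555 of the 571 were called both ways. With the replicate 3 arrays of both lines left out they were 468 and 679. Leaving out 4F replicate 1 left 300 and 377, leaving out 4F replicate 2 left 309 and 356, and a fit on the 6 arrays alone gave 319 and 367.

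**Figure D1:**
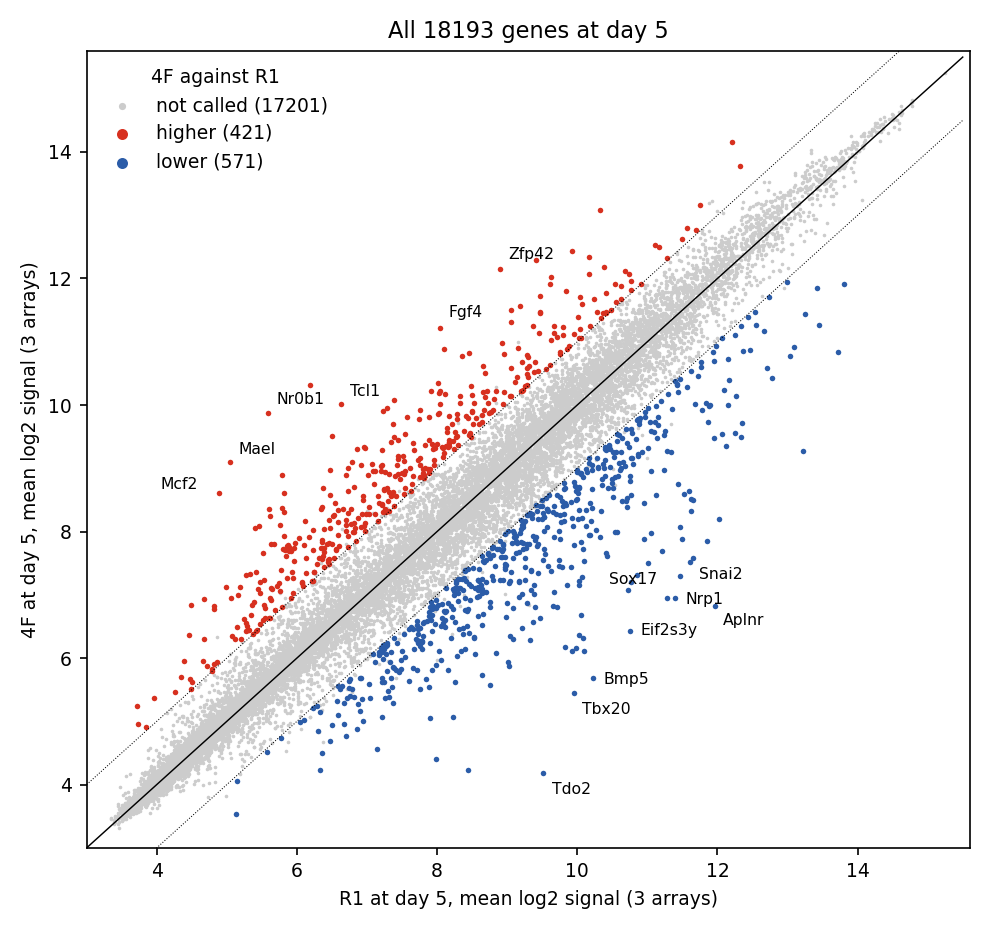
Mean log2 level of each of the 18193 genes in the 3 4F arrays (vertical axis) against the 3 R1 arrays (horizontal axis) at day 5, with the 421 genes called higher and the 571 called lower in colour. The called genes lie on both sides of the diagonal, with the larger distances below it.

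Genes of the naive and core pluripotency network were higher in 4F embryoid bodies. Of the 37 measured members of that list, 23 were higher and 1 lower, and their median difference was 1.88 on the log2 scale against 0.028 for all genes. In total RNA from whole aggregates, more cells of a type and more RNA per cell cannot be told apart. Nr0b1 (Dax1), a nuclear receptor of naive pluripotent cells, measured 10.6, 10.6 and 8.45 in 4F and 6.62, 5.22 and 4.91 in R1, a difference of 4.30 ± 0.525 (standard error, SE) or 19.6-fold (adjusted p = 1.92e-05). Zfp42 (Rex1), a zinc finger gene used as a naive marker, measured 12.3, 12.3 and 11.9 against 10.1, 8.95 and 7.61 (3.26 ± 0.472, 9.56-fold, adjusted p = 0.000102). The R1 arrays spread over more than the 4F arrays in Zfp42, with replicate 3 the lowest. Both genes were among the 12 largest higher differences, which were taken only from called genes with separate groups. Their separation is thus not a further result.

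The core factors were higher as well. Sox2 measured 12.3, 12.3 and 11.5 in 4F and 10.4, 9.21 and 9.22 in R1 (2.39 ± 0.437, 5.26-fold, adjusted p = 0.000822). Nanog, the homeobox factor of the inner cell mass, measured 11.2, 11.4 and 11.3 against 10.2, 9.31 and 7.63 (2.26 ± 0.48, 4.79-fold, adjusted p = 0.00278). Pou5f1 (Oct4) measured 12.6, 12.5 and 11.9 against 11.2, 10.8 and 8.59 (2.17 ± 0.517, 4.5-fold, adjusted p = 0.00672). In all 3 genes every 4F array lay above every R1 array, and R1 replicate 3 was the lowest or next to lowest. Without R1 replicate 3 the Pou5f1 difference was 1.38 (adjusted p = 0.0669), and on the 6 arrays alone the adjusted p was 0.0738 for Pou5f1 and 0.054 for Nanog, so these calls ended.

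The proximal promoters of Nanog, Zfp42 and Sox2 are shown because they were the 3 among the 14 called pluripotency genes with a promoter in the table that carried the octamer core, the sequence Oct4 binds. Each is the 250 bases before the gene start on the gene's strand, from RefSeq on build GRCm38.p6, with the octamer core (ATGCAAA or its complement TTTGCAT) in capitals. In Nanog the SOX core (ACAATG, both strands searched) is also in capitals, 1 base after the octamer core. The cores start 75 and 67 bases before the gene start in Nanog (chr6:122707239-122707488, plus strand), 185 before it in Zfp42 (chr8:43307010-43307259, minus strand) and 99 before it in Sox2 (chr3:34649745-34649994, plus strand).
Nanog: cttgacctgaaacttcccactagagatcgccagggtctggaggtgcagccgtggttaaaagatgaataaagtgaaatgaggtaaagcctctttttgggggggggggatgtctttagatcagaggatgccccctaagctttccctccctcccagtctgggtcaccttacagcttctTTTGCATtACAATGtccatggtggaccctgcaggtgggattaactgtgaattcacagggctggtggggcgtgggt
Zfp42: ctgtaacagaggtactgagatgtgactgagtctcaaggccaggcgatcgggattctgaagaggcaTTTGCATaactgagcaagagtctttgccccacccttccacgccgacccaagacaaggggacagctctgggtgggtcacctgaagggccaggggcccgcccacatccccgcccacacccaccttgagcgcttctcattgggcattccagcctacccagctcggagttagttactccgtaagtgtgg
Sox2: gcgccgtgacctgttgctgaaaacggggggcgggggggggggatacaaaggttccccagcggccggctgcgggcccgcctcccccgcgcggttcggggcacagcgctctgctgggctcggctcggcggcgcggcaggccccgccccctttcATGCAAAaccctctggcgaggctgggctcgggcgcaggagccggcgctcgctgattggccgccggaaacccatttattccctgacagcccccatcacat
The octamer core was found in 4.13% of the 32851 promoters of this length and in 4.18% of the 14452 tested genes that have one. It was found in 28 of 330 genes called higher (8.48%) and in 15 of 449 called lower (3.34%). The SOX core was found in 10.7% of the promoters, in 9.4% of the tested genes, in 8.18% of the genes called higher and in 6.01% of those called lower. A match describes these letters only.

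Other members of the network followed. Fgf4, the FGF ligand of pluripotent cells, measured 11.7, 11.8 and 10.2 in 4F and 9.03, 8.12 and 7.0 in R1 (3.17 ± 0.499, 9.01-fold, adjusted p = 0.000219). Tcl1, a coactivator of the kinase Akt, measured 10.2, 10.4 and 9.40 against 7.56, 6.05 and 6.29 (3.38 ± 0.399, 10.4-fold). Klf2, a Krüppel-like factor of naive cells, measured 11.0, 11.0 and 10.7 against 9.20, 7.87 and 7.21 (2.79 ± 0.432, 6.92-fold). Dppa2, a chromatin factor of pluripotent cells, measured 12.6, 12.6 and 11.7 against 10.2, 9.46 and 8.58 (2.88 ± 0.395, 7.36-fold). These 4 genes were also among the largest higher differences taken from genes with separate groups, so their separation is not a further result.

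Members at the edge of the list were less clear. Klf4, one of the reprogramming factors, measured 9.58, 9.40 and 9.62 in 4F and 8.65, 8.34 and 8.39 in R1 (1.08 ± 0.312, adjusted p = 0.0245). Without 4F replicate 3 its adjusted p was 0.054, and leaving out other single arrays except R1 replicate 1 ended its call too. Esrrb, a nuclear receptor of naive cells, measured 8.47, 8.55 and 8.44 against 8.05, 7.58 and 7.57 (0.76, adjusted p = 0.0244) and missed the 2-fold limit. The differences of its 3 probe sets ranged from 0.07 to 2.89. The only member called lower was Tbx3, a T-box factor of both naive cells and mesoderm, at -1.64. The count of higher members was between 18 and 26 with any one of the 6 arrays left out.

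**Figure D2:**
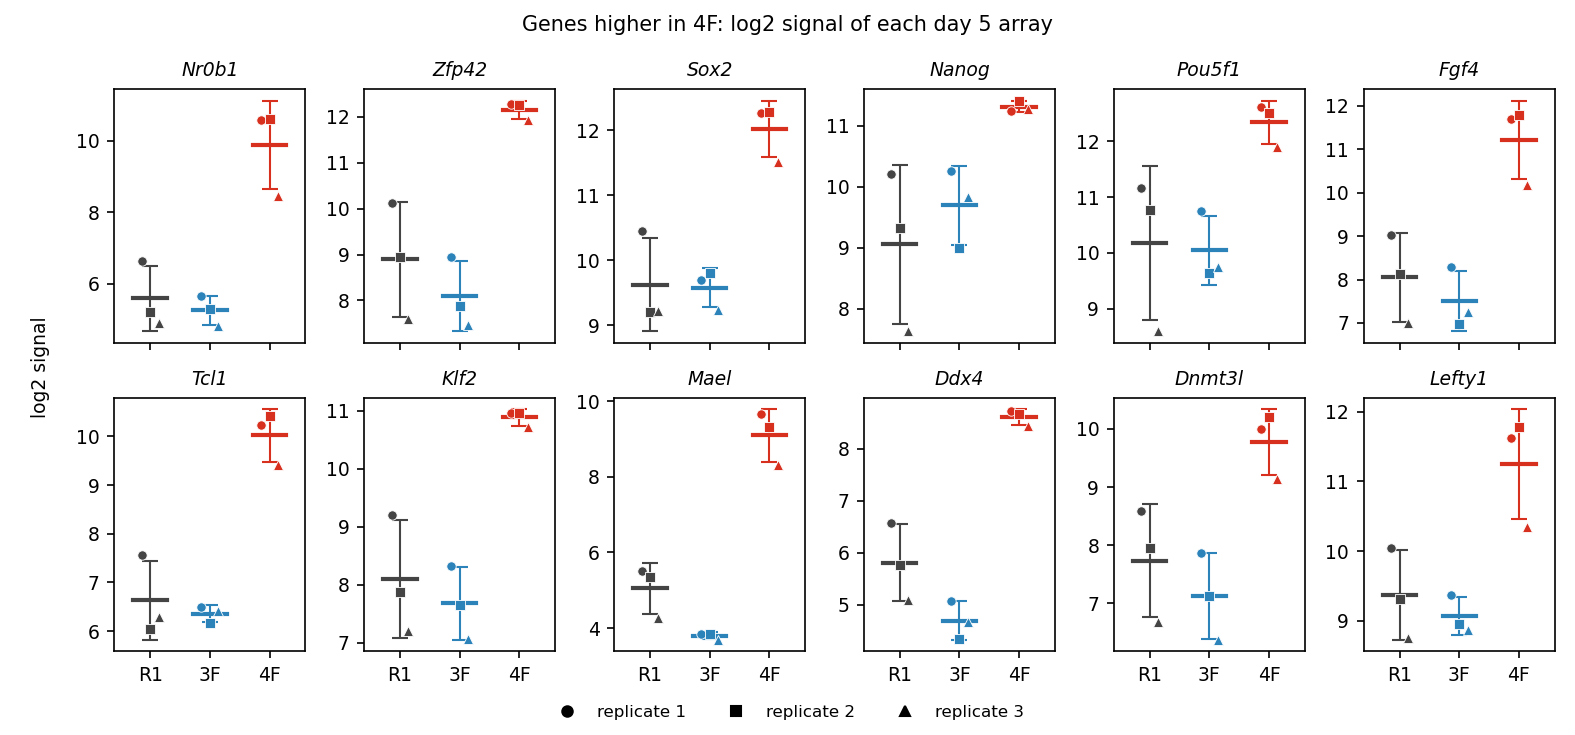
Log2 level in each day 5 array (vertical axis) of 12 genes called higher in 4F, with R1, 3F and 4F on the horizontal axis, bars at the mean, error bars of 1 SD (n = 3) and a symbol per replicate number. In each panel the 4F arrays lie above the R1 arrays, and 4F replicate 3 is the lowest 4F array for most genes, such as Nr0b1 at 8.45.

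Among the 12 largest higher differences over all genes were also genes outside that network. Mymx, which encodes a small membrane protein known from myoblast fusion, measured 10.4, 10.4 and 10.2 in 4F and 7.33, 6.37 and 4.85 in R1 (4.13 ± 0.421, 17.6-fold, adjusted p = 3e-06). Mcf2, which encodes a guanine nucleotide exchange factor, measured 9.07, 9.20 and 7.56 against 6.05, 4.35 and 4.25 (3.73 ± 0.446, 13.3-fold). Jam2, a junctional adhesion molecule, measured 9.76, 9.59 and 9.19 against 7.02, 6.62 and 5.87 (3.01 ± 0.289, 8.07-fold). The groups were separate in all 3, as the choice of these 12 genes required.

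Germ line genes were higher in part. Of 23 measured, 7 were higher and 0 lower, with a median of 0.63. Mael, which protects germ cells from transposons, measured 9.66, 9.30 and 8.32 in 4F and 5.51, 5.36 and 4.28 in R1 (4.04 ± 0.328, 16.5-fold, adjusted p = 2e-07). Ddx4 (Vasa), an RNA helicase of germ cells, measured 8.72, 8.66 and 8.43 against 6.58, 5.77 and 5.09 (2.79 ± 0.28, 6.92-fold, adjusted p = 3e-06). Both were among the 12 largest higher differences, which were taken only from called genes with separate groups. Their R1 and 4F means at day 0 were 8.63 and 8.85 for Mael and 9.14 and 9.10 for Ddx4. By day 5 Mael had changed by -3.58 in R1 and 0.24 in 4F, and Ddx4 by -3.32 and -0.50, with neither 4F change called. Dmrt1, a testis transcription factor that is not in this list, was also named as 1 of those 12 differences. It measured 9.07, 9.02 and 8.58 against 6.37, 5.84 and 5.17 (3.10 ± 0.316, 8.57-fold). Stk31, a kinase gene of germ cells in the list, was higher by 1.90 ± 0.196. Dnmt3l, the cofactor of de novo DNA methylation, measured 9.99, 10.2 and 9.14 against 8.58, 7.95 and 6.68 (2.04 ± 0.425, 4.11-fold). Of the 11 genes of DNA methylation and its removal, 2 were higher, Dnmt3l and Dnmt3a (1.2, adjusted p = 0.00481). Of the probe sets of Dnmt3a the lowest differed by -0.41, and the mean over them gave 0.64 (adjusted p = 0.0767). Dnmt3b measured 13.8, 13.7 and 13.1 against 13.4, 12.8 and 12 and did not pass (0.80, adjusted p = 0.123).

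Genes of the primed epiblast, the stage after naive pluripotency, were also higher in 4F: 7 of 16 were higher and 2 lower, with a median of 1.01. On the 6 arrays alone 2 were higher. Otx2, a homeobox factor of the epiblast and anterior neural plate, measured 12, 11.9 and 10.6 in 4F and 10.5, 9.68 and 7.0 in R1 (2.46 ± 0.694, 5.49-fold, adjusted p = 0.0211). Its call ended without 4F replicate 1 (adjusted p = 0.109), 4F replicate 2 (0.103) or R1 replicate 3 (0.199). Pou3f1 (Oct6) measured 11.2, 11.3 and 8.51 against 8.72, 8.13 and 7.18 (2.34 ± 0.477, 5.05-fold, adjusted p = 0.00205, and 0.102 on the 6 arrays alone), and only 4F replicate 3 overlapped R1. Sfrp2, a secreted Wnt antagonist, measured 9.35, 9.23 and 8.55 against 7.55, 6.88 and 6.30 (2.14 ± 0.352, 4.39-fold). Fgf5, the FGF ligand most used as an epiblast marker, measured 10.4, 10.6 and 9.09 against 10.3, 9.51 and 6.75, with overlapping groups (1.18 ± 0.672, adjusted p = 0.31).

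Of 15 Nodal genes measured, 4 were higher and 4 lower. Lefty1, a secreted Nodal inhibitor, measured 11.6, 11.8 and 10.3 in 4F and 10.04, 9.32 and 8.75 in R1 (1.88 ± 0.371, 3.67-fold, adjusted p = 0.00159). Lefty2, a related inhibitor, measured 9.84, 10.03 and 9.88 against 8.82, 8.16 and 6.31 (2.16 ± 0.454, 4.46-fold, adjusted p = 0.00262, and 0.0592 on the 6 arrays alone). Gdf3, a ligand of the same family, measured 10.4, 10.5 and 8.93 against 8.09, 7.31 and 6.44 (2.67 ± 0.429, 6.36-fold). Cfc1 (Cryptic), a Nodal coreceptor of mesoderm, went the other way at 8.06, 8.15 and 8.83 against 10.1, 10.05 and 9.91 (-1.68 ± 0.201, 3.2-fold lower, adjusted p = 1.56e-05). Leaving out 4F replicate 2 left 1 lower member and leaving out 4F replicate 1 left 2. Among 24 FGF genes 3 were higher and 2 lower, with 5 higher without 4F replicate 3 and 1 without 4F replicate 1, 4F replicate 2 or R1 replicate 3. Fgf3, a ligand of streak and mesoderm, measured 5.89, 6.21 and 9.14 against 10.4, 10.7 and 11.0 (-3.65 ± 0.509, 12.5-fold lower). Fgfr2, an FGF receptor, measured 7.87, 8.02 and 7.76 against 9.29, 9.53 and 10.4 (-1.87 ± 0.316), or -0.98 as the mean of its 3 probe sets. Fgfr2 was also lower in 4F at day 0, with a difference of -1.23. Etv5, a transcription factor induced by FGF, was higher by 1.36 (adjusted p = 0.0306), and 4 of the 6 omissions of 1 array ended that call.

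In the list of primitive streak and early mesoderm genes the count depended on 4F replicate 3. Of 21 measured genes 0 were higher and 5 lower, with a median of -0.74. Without 4F replicate 3, 13 were lower, with a median of -1.55. Without 4F replicate 1, 2 were lower, without 4F replicate 2, 3, and the 6 arrays alone gave 1. Mixl1, a homeobox factor of the streak, measured 7.94, 8.15 and 13.0 in 4F and 12.4, 11.7 and 9.91 in R1. Mesp1, the first factor of cardiac mesoderm, measured 7.95, 7.92 and 11.6 against 12.1, 11.4 and 9.46. In both genes 4F replicates 1 and 2 lay below all R1 arrays, 4F replicate 3 lay with or above them, and R1 replicate 3 was the lowest of R1. With all arrays Mixl1 differed by -1.64 (adjusted p = 0.256) and Mesp1 by -1.83 (adjusted p = 0.101). Without 4F replicate 3 the differences were -3.30 (adjusted p = 0.000239) and -3.07 (adjusted p = 0.000435).

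Evx1, a homeobox factor of the posterior streak, had the same order of arrays, at 7.93, 8.08 and 11.4 against 10.8, 10.4 and 9.53 (-1.14, adjusted p = 0.225, and -2.27 with adjusted p = 8.83e-05 without 4F replicate 3). Eomes, the T-box factor of anterior streak, measured 10.9, 10.9 and 12.4 against 12.8, 12.2 and 10.1 (-0.29, adjusted p = 0.871). It did not pass without 4F replicate 3 (-0.80, adjusted p = 0.517), and without R1 replicate 1 its sign was positive (0.25). Foxa2, a forkhead factor of anterior streak and endoderm, measured 6.52, 6.74 and 5.92 against 8.80, 8.69 and 7.88 (-2.06 ± 0.387, 4.18-fold lower, adjusted p = 0.00105), and here 4F replicate 3 was the lowest array. Rspo3, a Wnt agonist, was at 6.98, 7.31 and 11.1 against 10.9, 10.9 and 11.0 (-2.49, adjusted p = 0.0128), and Lhx1, a LIM homeobox factor, at 5.00, 5.54 and 7.87 against 9.34, 8.79 and 7.07 (-2.26, adjusted p = 0.00505). In both, 4F replicate 3 reached the R1 range. The call of Rspo3 ended without 4F replicate 1 or 2 (adjusted p = 0.129 and 0.117) and that of Lhx1 without 4F replicate 1 (0.0586).

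Receptors and signals of lateral mesoderm had the lowest median of the lists described here, -1.72: 8 of 16 were lower and 1, the chemokine gene Cxcl12, was higher (1.41). Aplnr, the apelin receptor that migrating mesoderm uses, measured 4.57, 4.63 and 11.3 in 4F and 12.1, 12 and 11.8 in R1 (-5.14 ± 0.999, 35.3-fold lower, adjusted p = 0.00139), and without 4F replicate 3 it was lower by 7.37. 4F replicates 1 and 2 thus stood near the 4F mean of day 0, 4.38, and replicate 3 just below the R1 arrays. Nrp1, a coreceptor for vascular endothelial growth factor (VEGF) and semaphorins, measured 5.76, 5.19 and 9.89 against 11.1, 11.2 and 12 (-4.45 ± 0.736, 21.9-fold lower, adjusted p = 0.000348). Pdgfra, the platelet-derived growth factor receptor of early mesoderm, measured 6.35, 6.40 and 10.9 against 11.3, 11.1 and 12.1 (-3.61 ± 0.714, 12.2-fold lower, adjusted p = 0.00157). Kdr, the VEGF receptor that marks the precursors of heart and blood vessels, measured 7.07, 7.06 and 9.79 against 11.4, 11.1 and 10.6 (-3.08 ± 0.474, 8.44-fold lower, adjusted p = 0.000175). Cxcr4, a chemokine receptor of mesoderm and endoderm, measured 5.10, 5.28 and 8.73 against 10.04, 10.1 and 9.91 (-3.65 ± 0.633, 12.5-fold lower).

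In each of these 5 receptors 4F replicate 3 lay between its partners and the R1 arrays. On the 6 arrays alone the adjusted p was 0.0984 for Aplnr, 0.0545 for Nrp1 and 0.0948 for Pdgfra, and 3 of the 8 lower members kept a call. Apela, a ligand of Aplnr that pluripotent cells also make, measured 11.3, 11.3 and 10.5 against 9.75, 10.7 and 9.95 (0.92, adjusted p = 0.192).

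BMP and transforming growth factor beta (TGF-beta) genes were lower in 11 of 28 and higher in 0, with a median of -0.81. The ligands came first. Bmp5 measured 5.29, 4.90 and 6.85 in 4F and 10.1, 9.93 and 10.6 in R1 (-4.54 ± 0.486, 23.3-fold lower, adjusted p = 4.75e-06). Bmp2, a heart-inducing ligand, measured 5.09, 5.34 and 7.89 against 9.88, 9.70 and 10.2 (-3.82 ± 0.485, 14.1-fold lower, adjusted p = 2.76e-05). Bmp4, which induces posterior and lateral mesoderm, measured 8.81, 8.55 and 11.3 against 12.2, 12 and 12.6 (-2.68 ± 0.43, 6.41-fold lower, adjusted p = 0.000267). The groups were separate in all 3 ligands, of which Bmp5 was among the 12 largest lower differences, taken only from genes with separate groups. Among the genes BMP induces, Smad6, an inhibitory Smad, measured 6.18, 6.12 and 9.32 against 10.4, 10.7 and 11.2 (-3.55 ± 0.561, 11.7-fold lower). Msx2, a homeobox factor, measured 7.29, 7.46 and 11.2 against 11.5, 11.7 and 11.6 (-2.95 ± 0.581, 7.73-fold lower). Leaving out 4F replicate 1 or 2 left 7 lower members, and the 6 arrays alone left 3, with adjusted p of 0.0536 for Bmp4 and 0.0972 for Msx2.

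Cardiac transcription factors were lower in 13 of 29 and higher in 0, with a median of -1.08. Tbx20, a T-box factor of heart progenitors, measured 4.19, 4.23 and 7.90 in 4F and 9.6, 9.65 and 10.6 in R1 (-4.51 ± 0.657, 22.8-fold lower, adjusted p = 0.000106). Hand2, a basic helix-loop-helix factor of the second heart field, measured 5.61, 5.35 and 7.98 against 10.1, 9.86 and 10.3 (-3.76 ± 0.447, 13.6-fold lower, adjusted p = 1.52e-05), although another of its 3 probe sets differed by 0.02. Tbx2, a T-box repressor, measured 4.18, 4.47 and 6.57 against 8.26, 8.43 and 7.98 (-3.15 ± 0.398, 8.91-fold lower). Hey2, a Notch target of the ventricle, measured 4.60, 4.88 and 5.71 against 6.77, 6.83 and 8.04 (-2.15 ± 0.384). In these 4 genes every 4F array lay below every R1 array and 4F replicate 3 was the highest of 4F. Tbx20, like Bmp5, was taken from genes with separate groups.

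The GATA factors were lower too. Gata4 measured 5.98, 6.17 and 7.87 in 4F and 8.74, 8.78 and 8.24 in R1 (-1.92 ± 0.408, 3.77-fold lower, adjusted p = 0.00283). Gata6 measured 6.91, 6.51 and 8.76 against 9.40, 9.09 and 9.54 (-1.95 ± 0.367, 3.86-fold lower, adjusted p = 0.00109), while 1 of its 3 probe sets differed by 0.14. Hand1, which marks lateral mesoderm and trophoblast, measured 7.18, 7.05 and 8.18 against 8.43, 8.75 and 9.78 (-1.52 ± 0.321, adjusted p = 0.00268), and -0.95 as the mean of its probe sets. Isl1, a factor of the second heart field, measured 5.98, 6.00 and 7.69 against 7.68, 7.61 and 8.10 (-1.24, adjusted p = 0.03). Its call ended with any one of the arrays left out except 4F replicate 3. Nkx2-5, the heart homeobox factor, measured 7.16, 7.16 and 7.02 against 7.09, 7.48 and 7.26 (adjusted p = 0.803), and Tbx5 6.48, 6.49 and 6.35 against 6.48, 6.46 and 6.43 (adjusted p = 0.978). Both groups thus overlapped in these later factors. Leaving out 4F replicate 1 left 8 lower cardiac factors, as did the 6 arrays alone, with adjusted p of 0.0518 for Gata4, 0.0653 for Gata6 and 0.0642 for Hand1.

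The proximal promoter of Hand2 is shown because it was the only one of the 7 called cardiac factors with a promoter in the table that carried the GATA core (AGATAA or its complement TTATCT, in capitals), which GATA factors bind. It is given as above (RefSeq, GRCm38.p6, chr8:57320733-57320982, plus strand), and the core starts 172 bases before the gene start.
Hand2: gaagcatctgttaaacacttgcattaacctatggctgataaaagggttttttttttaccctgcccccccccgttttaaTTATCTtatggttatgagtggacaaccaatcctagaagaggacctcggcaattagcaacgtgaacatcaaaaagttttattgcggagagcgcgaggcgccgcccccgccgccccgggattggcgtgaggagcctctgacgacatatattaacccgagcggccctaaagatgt
The GATA core was found in 9.99% of all promoters of this length, in 8.79% of the tested genes, in 7.58% of genes called higher and in 7.8% of genes called lower.

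Few genes of the contractile apparatus were called at day 5: 4 of 32 were lower and 1, the alpha-actinin gene Actn2, was higher (1.03). The median was -0.13, and the share of lower genes was above the 3.14% of all genes. Tnnc1, the troponin C of slow and cardiac muscle, measured 5.76, 5.73 and 7.01 in 4F and 8.86, 10.6 and 10.5 in R1 (-3.82 ± 0.518, 14.1-fold lower, adjusted p = 5.68e-05). Tnni1, the slow troponin I of the embryonic heart, measured 6.08, 6.45 and 7.02 against 7.73, 8.55 and 9.63 (-2.12 ± 0.451, 4.35-fold lower, adjusted p = 0.00283). Tpm1, a tropomyosin also made outside muscle, was lower by 1.81 ± 0.369, with an adjusted p of 0.0602 on the 6 arrays alone. Myl7, an atrial myosin light chain, measured 7.0, 6.88 and 7.17 against 9.66, 9.35 and 7.88 and did not pass (-1.95, adjusted p = 0.0801). Tnnt2 (-1.32, adjusted p = 0.221) and Actc1 (-1.03, adjusted p = 0.473) had overlapping groups. At this day R1 replicate 3 was the highest R1 array in Tnnt2, at 7.57 against 4.73 and 5.24.

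**Figure D3:**
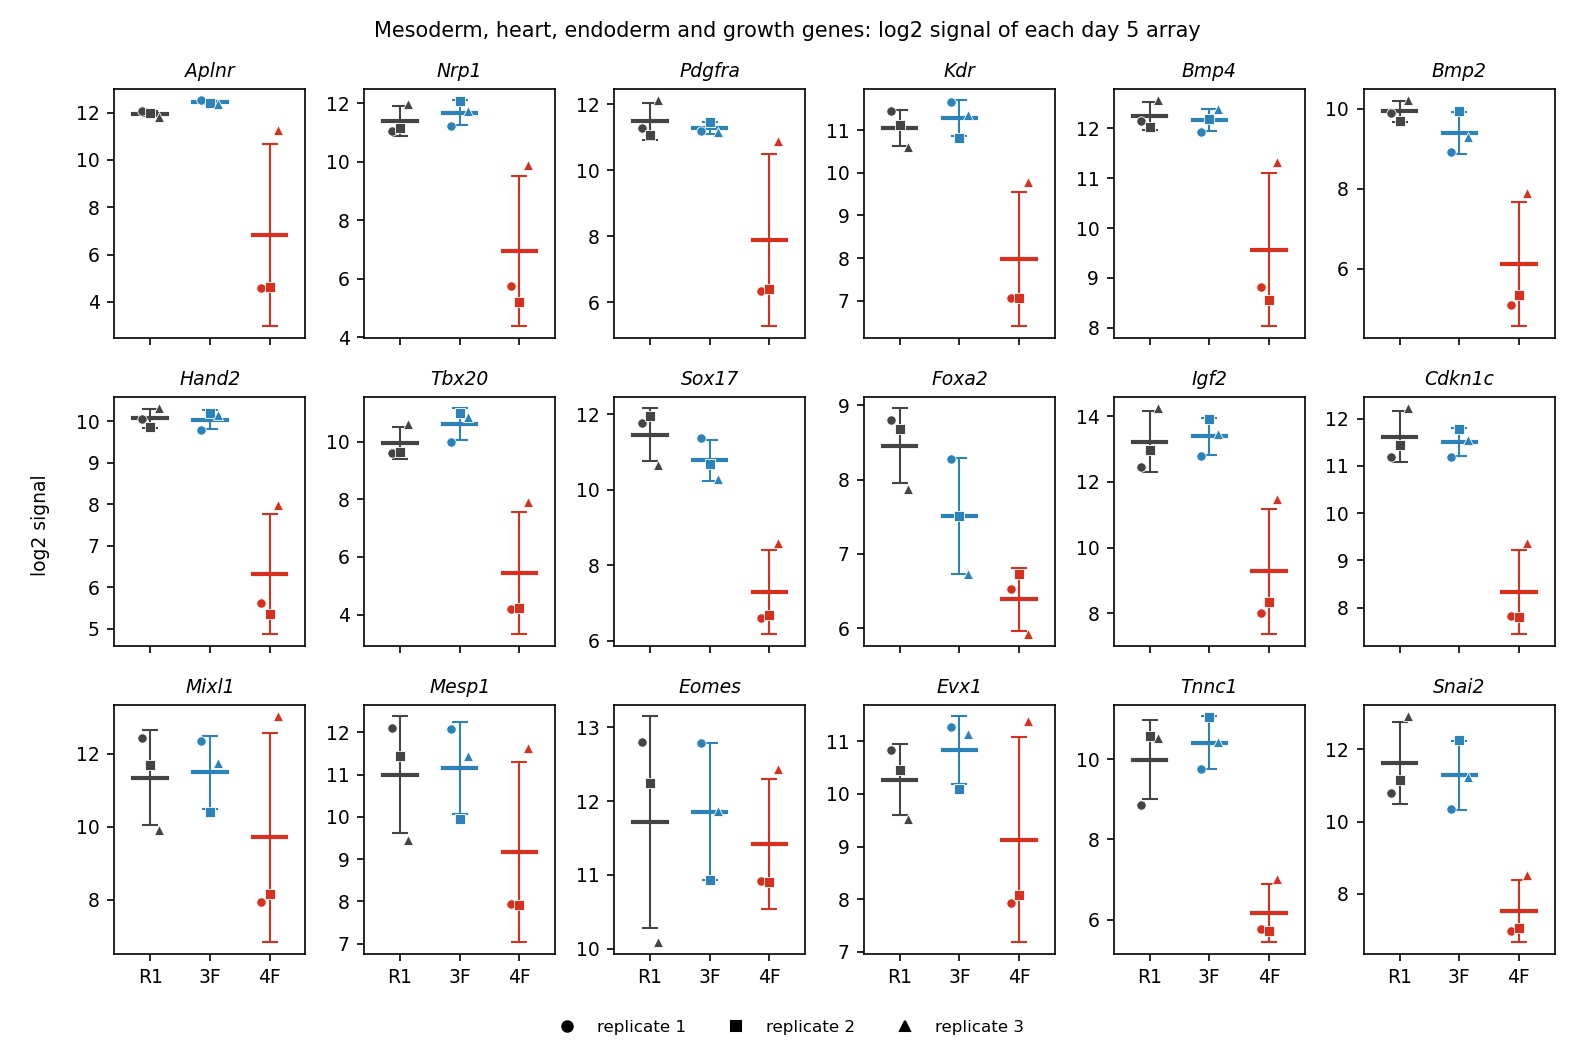
Log2 level in each day 5 array (vertical axis) of 18 genes, 14 of them called lower in 4F and 4 streak factors not called (Mixl1, Mesp1, Eomes and Evx1), with R1, 3F and 4F on the horizontal axis, bars at the mean, error bars of 1 SD (n = 3) and a symbol per replicate number. In most panels 4F replicate 3 lies above its partners, as in Aplnr at 11.3 against 4.57 and 4.63.

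Definitive endoderm genes were lower in 7 of 16 and higher in 0, with a median of -1.05. Sox17, the SoxF factor of endoderm and early vessels, measured 6.6, 6.69 and 8.59 in 4F and 11.8, 11.9 and 10.7 in R1 (-4.17 ± 0.426, 18-fold lower, adjusted p = 3e-06). Foxa1, a forkhead factor of endoderm, measured 5.83, 6.30 and 6.2 against 10.1, 10.7 and 9.42 (-3.99 ± 0.392, 15.8-fold lower, adjusted p = 3e-06). In Foxa1, as in Foxa2, 4F replicate 3 did not stand apart from its partners. Of 28 visceral endoderm and yolk sac genes 4 were lower and 1 higher, with a median of -0.08. Over all genes 3.14% were lower and 2.31% higher. Tdo2, tryptophan dioxygenase, had the largest difference of all named genes, at 3.98, 3.98 and 4.60 against 8.35, 8.81 and 11.4 (-5.33 ± 0.744, 40.2-fold lower, adjusted p = 7e-05). Spink1, a secreted protease inhibitor, was lower by 2.58 ± 0.492, and Car4, a carbonic anhydrase, by 1.88 ± 0.44, with an adjusted p of 0.119 without the replicate 3 arrays of both lines. Amn, the amnionless receptor of visceral endoderm, was the member that was higher, at 9.36, 9.27 and 8.53 against 7.27, 7.73 and 6.63 (1.84 ± 0.37, adjusted p = 0.00179). Its day 0 means were 8.68 in 4F and 8.38 in R1, and its changes to day 5 were 0.37, not called, and -1.17. Afp measured 6.39, 6.56 and 7.04 against 5.62, 6.07 and 5.60 (0.90, adjusted p = 0.131), and Ttr 8.77, 9.27 and 8.30 against 9.11, 9.55 and 10.3 (-0.86, adjusted p = 0.533). Neither yolk sac product passed the test on these probe sets, but the differences of the 5 probe sets of Afp ranged from -0.16 to 2.13.

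Keratins of simple epithelia were lower. They belong to the list of parietal endoderm and basement membrane, in which 9 of 22 genes were lower and 1 higher (Srgn, a proteoglycan gene, 1.78). The median was -0.86. The members with the largest differences were Sox17, also counted under definitive endoderm, and the keratins Krt8, Krt18 and Krt19. Of the 4 parietal endoderm markers, Lama1, Lamb1, Col4a1 and Thbd, 1 was lower. Krt8 measured 9.997, 9.91 and 12.6 in 4F and 13.3, 13.9 and 13.9 in R1 (-2.89 ± 0.551, 7.43-fold lower, adjusted p = 0.00117). Krt18, its partner in the filament, measured 8.89, 8.73 and 10.9 against 11.8, 12.5 and 12.7 (-2.84 ± 0.499, 7.18-fold lower, adjusted p = 0.000591). Krt19 measured 6.72, 6.6 and 8.16 against 9.54, 10.5 and 10.03 (-2.86 ± 0.43, 7.28-fold lower, adjusted p = 0.00014). The 3 keratins were also lower in 4F at day 0, by 2.08, 2.17 and 1.89 for Krt8, Krt18 and Krt19. In trophoblast genes 5 of 17 were lower and 0 higher, and 2 of the 5 were Krt8 and Krt18. Plac1, a placental gene, measured 5.86, 6.47 and 9.63 against 9.82, 10.5 and 12.2 (-3.54 ± 0.657, 11.6-fold lower), with an adjusted p of 0.000959 and of 0.076 on the 6 arrays alone. The call of Gata3 (-1.60, adjusted p = 0.0384) ended with any one of the arrays left out except 4F replicate 3.

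Endothelial and hemangioblast genes were lower in 5 of 26, Kdr among them, and 1, Cd34, was higher (1.56), with a median of -0.26. Without 4F replicate 3, 8 were lower, and on the 6 arrays alone 2. Ets1, a vascular transcription factor, measured 7.22, 7.43 and 9.44 in 4F and 9.96, 10.1 and 10.8 in R1 (-2.24 ± 0.419, 4.73-fold lower, adjusted p = 0.00101). Flt1, a VEGF receptor, measured 6.18, 6.12 and 6.84 against 8.37, 8.42 and 8.30 (-1.99 ± 0.304, 3.96-fold lower, adjusted p = 0.000165). Tal1, the factor that starts blood formation, measured 5.49, 5.37 and 6.03 against 6.6, 7.14 and 9.06 (-1.97 ± 0.412, adjusted p = 0.00246). On the 6 arrays alone the adjusted p was 0.054 for Ets1 and 0.0785 for Tal1. Erythroid genes were lower in 3 of 14, and R1 replicate 3 was the highest array for Tal1, Nfe2, Gata1 and the embryonic globin Hbb-bh1. Without R1 replicate 3 the difference of Nfe2 was -0.60 (adjusted p = 0.342, with -1.18 and 0.0401 over all arrays) and that of Gata1 -0.62 (adjusted p = 0.0994, with -1.12 and 0.011). Hbb-bh1 measured 7.45, 7.08 and 5.99 against 7.24, 8.05 and 12.6 and did not pass (-2.47, adjusted p = 0.22). Of 17 macrophage and immune genes 0 were called in either direction.

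Mesenchymal genes were lower in part. Among 27 genes of the cadherin switch and epithelial-mesenchymal transition 9 were lower, the 3 keratins above among them, and 2 higher, with a median of -0.36. Snai2 (Slug), a repressor of epithelial genes, measured 6.97, 7.06 and 8.51 in 4F and 10.8, 11.1 and 12.9 in R1 (-4.10 ± 0.487, 17.1-fold lower, adjusted p = 1.52e-05). Cdh11, a mesenchymal cadherin, measured 6.67, 6.54 and 11.0 against 11.4, 11.1 and 11.9 (-3.40 ± 0.691, 10.6-fold lower, adjusted p = 0.00198, and 0.1 on the 6 arrays alone). Cdh2 (N-cadherin) measured 7.34, 7.54 and 10.1 against 10.5, 10.3 and 10.2 (-2.0 ± 0.473, adjusted p = 0.00623), and its call ended without 4F replicate 1 (0.0691) or 2 (0.0646). Cdh1 (E-cadherin) measured 12, 11.9 and 11.1 against 11.1, 11.4 and 9.50 (1.0, adjusted p = 0.0792). Vim (vimentin) measured 10.6, 10.7 and 12.2 against 12.4, 12.6 and 12.9 (-1.49 ± 0.326, adjusted p = 0.00355, and 0.0656 on the 6 arrays alone). In Cdh11, Cdh2 and Vim 4F replicate 3 was again within 1 log2 unit of the R1 arrays.

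In the fibroblast and feeder list 8 of 29 were lower and 0 higher, with a median of -0.76, and leaving out 4F replicate 1, 4F replicate 2 or R1 replicate 3 left 5. Fbln2, an extracellular matrix protein, measured 5.89, 5.86 and 7.17 in 4F and 8.78, 9.15 and 9.30 in R1 (-2.77 ± 0.484, 6.82-fold lower, adjusted p = 0.000575), but its other probe set differed by 0.16. Col5a1, a collagen, measured 7.20, 6.88 and 8.03 against 8.70, 9.63 and 10.6 (-2.26 ± 0.511, adjusted p = 0.0045). Pdgfrb, a receptor of pericytes and fibroblasts, was lower by 2.58 (adjusted p = 0.0112), a call that ended without 4F replicate 1 (0.0709), 4F replicate 2 (0.1) or R1 replicate 3 (0.107). Postn, a matrix protein, differed by -2.04 (adjusted p = 0.0634). Of the fibroblast genes Col3a1 and S100a4, at means of 9.75 and 11.4 in R1 at day 0, neither passed at day 5. Col3a1 measured 5.86, 5.43 and 5.95 against 5.23, 5.26 and 8.4 (adjusted p = 0.681), and S100a4 5.43, 4.95 and 4.99 against 4.92, 5.44 and 5.23 (adjusted p = 0.957). Of 14 smooth muscle genes 3 were lower. Tagln, an actin-binding protein, measured 7.37, 7.55 and 8.60 against 9.17, 10.6 and 10.4 (-2.22 ± 0.378, 4.67-fold lower), and Cnn2, a calponin, 9.92, 9.87 and 10.9 against 11.7, 12.2 and 12.3 (-1.85 ± 0.279, 3.6-fold lower). Acta2, smooth muscle actin, was lower by 2.26 (adjusted p = 0.0139), but the groups overlapped, 1 of its 3 probe sets differed by 0.18, and the call ended without 4F replicate 1 (0.0621), 4F replicate 2 (0.0851) or R1 replicate 3 (0.122). Myl9, a myosin light chain, differed by -1.19 (adjusted p = 0.146).

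Imprinted growth genes were lower: 10 of 24 were lower, 1, Plagl1, was higher (1.97), and the median was -0.80. Without 4F replicate 2, 6 were lower, and without 4F replicate 1, 7. Igf2, the fetal insulin-like growth factor, measured 8.02, 8.33 and 11.5 in 4F and 12.4, 13.0 and 14.2 in R1 (-3.94 ± 0.577, 15.4-fold lower, adjusted p = 0.000107). Its other probe set differed by -0.30. Cdkn1c, a cyclin-dependent kinase inhibitor, measured 7.81, 7.81 and 9.36 against 11.2, 11.4 and 12.2 (-3.29 ± 0.383, 9.76-fold lower, adjusted p = 1.47e-05). Mest measured 10.3, 10.3 and 11.2 against 12.3, 12.4 and 13.4 (-2.11 ± 0.252, 4.33-fold lower, adjusted p = 1.52e-05). The groups were separate in these 3 genes, of which Igf2 and Mest are expressed from the paternal allele and Cdkn1c from the maternal one in the mouse. Grb10, an adaptor that restrains growth, was lower by 2.27 ± 0.307, but 1 of its 3 probe sets differed by 0.06 and their mean by -0.84. The noncoding RNA Meg3 was lower by 1.68 (adjusted p = 0.015), a call that ended without 4F replicate 2 (0.0611) or R1 replicate 2 (0.118). The differences of its 11 probe sets ranged from -2.24 to 0.009, and their mean did not pass (-0.82, adjusted p = 0.076). Dlk1, from the same imprinted region, measured 6.43, 6.80 and 9.42 against 6.29, 6.74 and 8.27 (0.45, adjusted p = 0.739) and was at -0.48 without 4F replicate 3. Among the other genes of the insulin-like growth factor system, Igfbp4, a binding protein, was lower by 1.59 ± 0.298 (adjusted p = 0.0821 on the 6 arrays alone) and Igfbp2 higher by 1.23 ± 0.24. Igf2r, the receptor that clears Igf2, differed by -0.97 (adjusted p = 0.149).

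Y-linked genes also differed. Eif2s3y, a translation factor gene on the Y chromosome, measured 6.03, 5.22 and 8.03 in 4F and 10.8, 10.7 and 10.8 in R1 at day 5 (-4.32 ± 0.558, 20-fold lower, adjusted p = 3.07e-05). Uty, a Y-linked demethylase gene, measured 4.33, 3.85 and 5.01 against 7.98, 8.05 and 7.90 (-3.58 ± 0.369, 11.9-fold lower, adjusted p = 3e-06). Both were lower at day 0 as well, with differences of -2.81 and -2.20, and at day 11, with -3.75 and -3.53. Xist, the RNA of the inactive X chromosome, measured 7.09, 7.01 and 6.57 against 6.18, 6.62 and 6.39 and did not pass (0.49, adjusted p = 0.369). 4F replicate 3 was the highest 4F array in both Y-linked genes.

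Wnt genes were lower in 8 of 34 and higher in 3, and the lower count was 2 without 4F replicate 1 or 2 and 12 without 4F replicate 3. Wnt5a, a noncanonical ligand of the posterior mesoderm, measured 4.83, 5.01 and 9.04 in 4F and 8.85, 9.02 and 10.1 in R1 (-3.03 ± 0.696, adjusted p = 0.00515), and its call ended without 4F replicate 1 (0.0588) or 2 (0.0578). Dkk1, a secreted inhibitor, measured 5.88, 6.08 and 10.4 against 9.94, 9.96 and 9.34 (-2.30, adjusted p = 0.0375). Nkd1, an intracellular inhibitor, measured 5.43, 6.23 and 9.38 against 9.21, 9.56 and 8.87 (-2.20, adjusted p = 0.0118). 4F replicate 3 lay within or above the R1 range in Dkk1 and Nkd1, and the first lost its call with any array left out except 4F replicate 3. Nkd1 lost it without 4F replicate 1 (0.128), 4F replicate 2 (0.0964) or R1 replicate 2 (0.053), and 1 of its 4 probe sets differed by 0.03. Of the 20 Notch genes 1, Dtx1, was higher (1.07) and 1, Hey2, lower, and without 4F replicate 3, 4 and 5. The call of Dtx1 ended without 4F replicate 1 (0.0521), 4F replicate 2 (0.0604) or R1 replicate 3 (0.0653), and its other probe set differed by -0.08.

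Other lists had few called members, although several of their shares were above the 2.31% higher and 3.14% lower of all genes. Of 34 Hox and Cdx genes 0 were higher and 1 lower, Hoxd1 (-1.53, adjusted p = 0.0351), a call that ended without 4F replicate 1 (0.269), 4F replicate 2 (0.149) or R1 replicate 3 (0.272). Without 4F replicate 3, 4 were lower. Of 26 neural genes 3 were higher and 2 lower, and Neurod1, a neurogenic factor, measured 7.45, 7.76 and 5.27 in 4F and 4.97, 4.74 and 4.72 in R1 (2.02 ± 0.411, adjusted p = 0.00203, and 0.0773 on the 6 arrays alone). The neurofilament gene Nefm was higher by 1.87 ± 0.304, its partner Nefl by 1.85 (adjusted p = 0.00731, and 0.0715 without R1 replicate 3), and Sox11, of immature neurons, was lower by 1.61 ± 0.328. At day 0 the R1 and 4F means were 8.48 and 8.56 for Neurod1 and 11.2 and 11.05 for Nefl. From day 0 to day 5 Neurod1 changed by -3.66 in R1 and -1.73 in 4F, and Nefl by -2.26 and -0.24. Nefm rose by 1.90 in 4F, with a change of -0.85 in R1. Of 29 cell cycle and replication genes 0 were higher and 1, Myc, was lower, at 9.37, 9.55 and 9.70 against 10.6, 10.3 and 10.7 (-1.03 ± 0.187, adjusted p = 0.000777). Without 4F replicate 1 or R1 replicate 3 it was at -0.94, under the 2-fold limit. In 17 of these 29 genes every 4F array lay above every R1 array, and in 3 below. Over all 18193 genes the numbers were 3689 and 2682. Of 21 p53 targets and cyclin inhibitors 2 were higher, Pmaip1 (1.36) and Gadd45a (1.33), and 1 lower, Cdkn1c. Pmaip1 was also higher in 4F at day 0, by 1.57, and at day 11, by 1.62. Among glycolysis and hypoxia genes 3 of 23 were lower, Vegfa (-1.5 ± 0.305, and -0.91 as the mean of its probe sets), Ndrg1 (-1.60) and P4ha1 (-1.14). The calls of Ndrg1 and P4ha1 ended without 4F replicate 2 (adjusted p = 0.0533 and 0.0542). As the mean of its probe sets P4ha1 was at -0.82 (adjusted p = 0.0903). Among 18 immediate early and stress genes 2 were lower. Jun measured 7.70, 7.36 and 7.61 against 9.09, 9.32 and 10.1 (-1.96 ± 0.284, adjusted p = 0.000101), and Fos differed by -1.12 (adjusted p = 0.0247), with a call that ended with any array left out except 4F replicate 3 and R1 replicate 2. Of 17 fatty acid oxidation genes 1, Fabp3, was higher (1.34, and 0.77 as the mean of its probe sets).

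Among the single members called against the direction of the rest of their list, Tbx3, Cxcl12, Actn2, Srgn and Cd34 each lost the call when some single arrays were left out, with the smallest difference at -1.13 for Tbx3 and 0.88 for Actn2, both without 4F replicate 1. Amn kept its call under every alternative. Plagl1 kept its call under the single omissions and was at 0.79 as the mean of its 3 probe sets. Other counts of lower members also depended on single arrays. The Nodal list had 2 without 4F replicate 1 and 1 without 4F replicate 2, the erythroid list 1 without 4F replicate 2 or R1 replicate 3, and the fibroblast list 5 without 4F replicate 1, 4F replicate 2 or R1 replicate 3. On the 6 arrays alone the lower members numbered 3 among lateral mesoderm receptors and signals, 5 in the list of the cadherin switch and epithelial-mesenchymal transition and 2 in the trophoblast list.

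**Figure D4:**
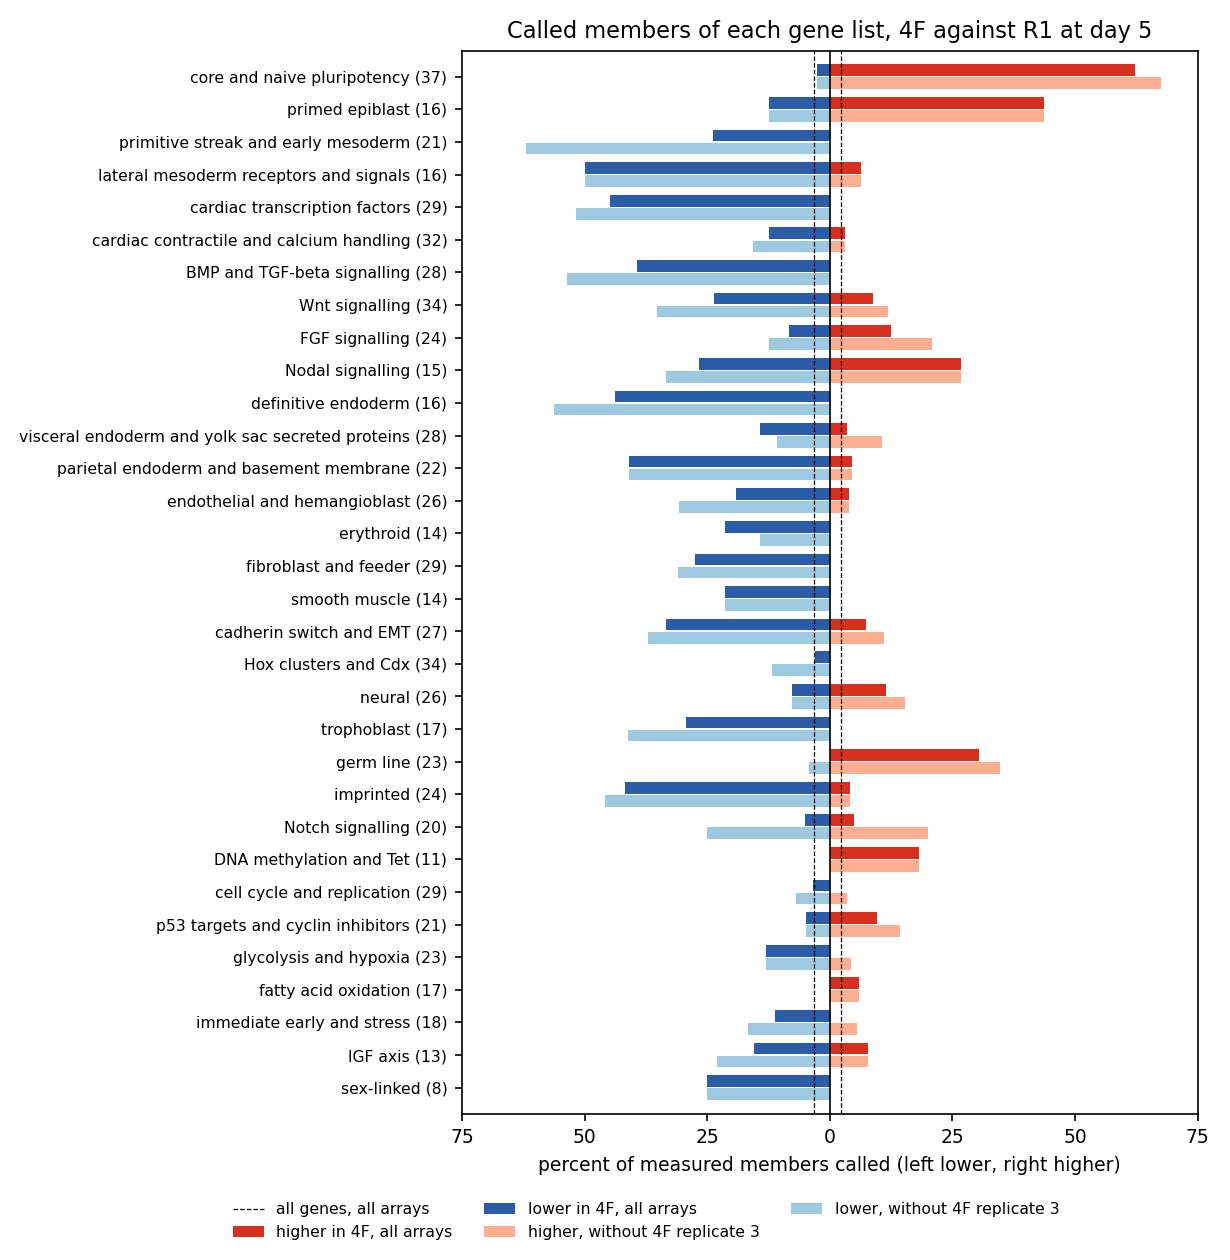
Percent of the measured members of each gene list called higher (right) or lower (left) in 4F than in R1 at day 5, with all 6 arrays and without 4F replicate 3, and dashed lines at the percent over all 18193 genes (2.31 and 3.14 with all arrays). The pluripotency list has the longest bar to the right with 23 of 37 members, and the streak list gains most without that array, from 5 to 13 of 21.

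Some of the largest lower differences were of genes in none of the lists. Capn6, a calpain without protease activity, measured 6.64, 6.1 and 8.08 in 4F and 10.9, 10.9 and 12 in R1 (-4.34 ± 0.443, 20.2-fold lower, adjusted p = 3e-06). Colec11, a secreted lectin that guides migrating cells, measured 4.21, 4.11 and 4.37 against 7.10, 7.58 and 10.7 (-4.21 ± 0.662, 18.5-fold lower). Asb4, a ubiquitin ligase adaptor of early vessels, measured 6.44, 6.25 and 10.04 against 12.2, 11.7 and 11.0 (-4.07 ± 0.624, 16.8-fold lower). Pmp22, a membrane protein known from myelin, measured 6.45, 6.15 and 10.9 against 11.4, 11.7 and 12.5 (-4.0 ± 0.714, 16.1-fold lower, and adjusted p = 0.079 on the 6 arrays alone). Colec11 was the only one of the 4 in which 4F replicate 3 stayed with its partners.

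Set against the other iPS line at day 5, 4F had 529 genes higher (2.91%) and 831 lower (4.57%) than 3F. This comparison shares the 4F arrays with the one above, so both rest on the same 3 arrays, and the values are given side by side. Nr0b1 measured 5.65, 5.29 and 4.82 in 3F, and 4F was higher by 4.63 than 3F and by 4.30 than R1. Nanog measured 10.3, 8.99 and 9.83 in 3F, with differences of 1.62 and 2.26. Aplnr measured 12.5, 12.4 and 12.4 in 3F, with differences of -5.61 and -5.14, and Igf2 12.8, 13.9 and 13.5, with differences of -4.11 and -3.94. The 3F arrays thus lay near the R1 arrays in these 4 genes. By list, 25 of 37 pluripotency genes were higher and 13 of 29 cardiac factors and 16 of 28 BMP and TGF-beta genes lower in 4F than in 3F. The 3′ minus 5′ index was 1.17, 1.01 and 1.11 in 3F and did not overlap that of 4F, and with it as a covariate 500 genes were lower than in 3F. Its part in the result was not tested.

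At day 0, before differentiation, the lines differed in fewer genes: 117 were higher (0.643%) and 87 lower (0.478%) in 4F. Without R1 replicate 1 of that day the counts were 303 and 146, and without R1 replicate 3 or 4F replicate 1 of that day 71 were higher. Of the 421 genes higher at day 5, 23 were also higher at day 0, which is 5.46% of the day 5 list and 19.7% of the day 0 list. Of the 571 lower genes 17 were also lower at day 0, or 2.98% and 19.5%. Of the 37 pluripotency genes 2 were higher and 1 lower at day 0, shares above the 0.643% and 0.478% of all genes. The R1 and 4F means before differentiation were 13.0 and 13.4 for Nanog, 13.7 and 14 for Zfp42, and 12.9 and 13.3 for Sox2. Fgf5 was lower in 4F, at 5.98 against 9.04 (-3.06), and Sox17 was higher, at 6.67 against 5.01 (1.66).

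Whether the lines changed differently from day 0 to day 5 was tested as an interaction, the 4F change minus the R1 change. It was positive for 288 genes (1.58%) and negative for 375 (2.06%). Zfp42 fell by 4.81 in R1 and by 1.84 in 4F. Mael fell by 3.58 in R1, and its change in 4F was 0.24 (interaction 3.82 ± 0.464, adjusted p = 7.09e-05). Sox17 rose by 6.46 in R1, while its change in 4F was 0.62 (interaction -5.84 ± 0.603, adjusted p = 1.06e-05). Hand2 rose by 4.49 in R1 with a change of 0.23 in 4F (interaction -4.26 ± 0.633, adjusted p = 0.000652). Fgf5 went the other way round: it rose by 4.04 in 4F, and its change in R1 was -0.20 (interaction 4.24 ± 0.95, adjusted p = 0.0122), so that both lines reached overlapping levels at day 5. By list, 12 of 37 pluripotency genes had a positive interaction and 9 of 29 cardiac factors and 8 of 28 BMP and TGF-beta genes a negative one. The day 5 arrays enter this test and the comparison above alike, and on the arrays of these 4 groups alone the counts were 170 and 229. Leaving out 4F replicate 3 of day 5 gave 475 and 734, leaving out 4F replicate 1 of day 5 gave 136 and 158, and every other single omission that moved a count by more than 1.5 times lay between these.

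At day 11 the lines differed in 434 higher (2.39%) and 1077 lower genes (5.92%). Its arrays are not among the day 5 arrays, although the same fit pools the spread of both days. The median difference over all genes was -0.10 at that day, and under cyclic loess scaling the split was 598 and 845. Of the genes called at day 5, 103 were higher at day 11 too (24.5% of the day 5 and 23.7% of the day 11 list), and 169 lower (29.6% and 15.7%). Pluripotency genes still differed, with 22 of 37 higher and 1 lower, among them Zfp42 (3.74), Fgf4 (4.04), Nanog (2.6) and Pou5f1 (2.56). Klf2, higher by 2.79 at day 5, differed by 0.08 at day 11 and did not pass. Several genes that were lower at day 5 did not pass at day 11: Bmp2 differed by 0.35, Bmp5 by -0.18, Sox17 by -0.07, Hand2 by -0.95 and Igf2 by -0.59. Aplnr (-4.26), Kdr (-2.20) and Tnnc1 (-2.96) were lower at both days. At day 11, 16 of 32 contractile genes were lower, with Tnnt2 at -4.05 and Actc1 at -4.01, and 13 of 17 immune genes. The 3′ minus 5′ index was 2.44 to 2.89 in 4F and 1.75 to 2.16 in R1 at day 11, and with it as a covariate 547 genes were lower. Its part in the day 11 counts was not tested.

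**Figure D5:**
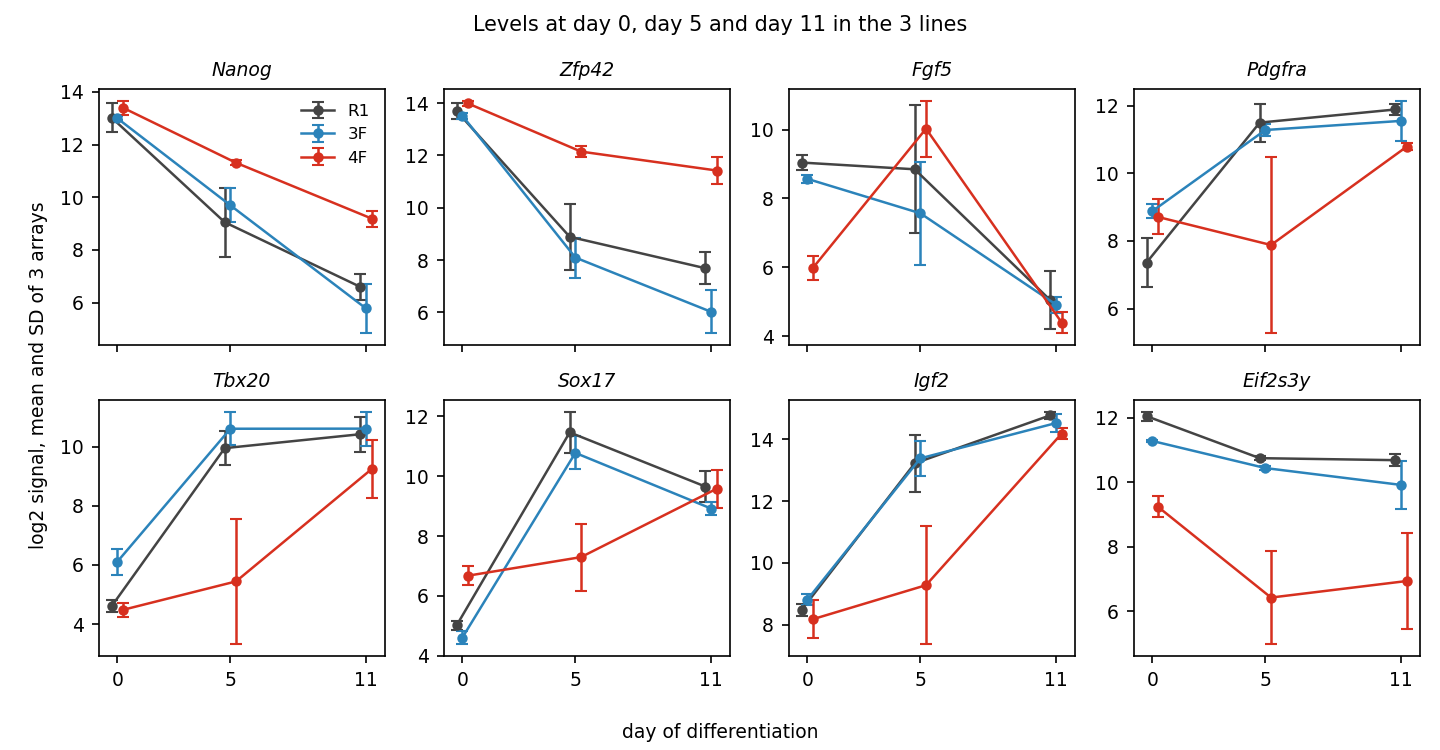
Mean log2 level (vertical axis) of 8 genes in R1, 3F and 4F at days 0, 5 and 11 (horizontal axis), with error bars of 1 SD (n = 3). Nanog and Zfp42 stay higher in 4F at days 5 and 11, Fgf5 starts lower in 4F at day 0, Sox17 is lower in 4F at day 5 but not called at day 11, and Eif2s3y is lower in 4F at every day.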

How the data were processed

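RNA of 27 cultures was hybridised to Affymetrix arrays as biotin-labelled cRNA, per the labels' protocols. The deposited values are log2 intensities that the authors made with RMA, per the submitters' processing notes (version not given in the sources used here). RMA corrects background, equalises the distributions of the arrays and summarises the probes of a probe set, so values compare arrays for one probe set, not genes with each other. Arrays carry no read depth, and 3 arrays per group limit the precision.

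Of 45101 probe sets, 34945 had 1 gene symbol, 932 several and 9160 none. The brightest probe set by its mean over the 27 arrays stood for each of 18193 genes, of which 9010 had several. Symbols came from the platform annotation, and 18032 gene identifiers matched RefSeq. No further normalization was applied.

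A model with 1 mean for each of the 9 groups of 3 arrays was fitted with limma 3.58.1 in R 4.3.3 (lmFit and eBayes, 18 residual and 4.1 prior degrees of freedom), which pools the spread of all groups, and p-values were adjusted over all genes by the Benjamini-Hochberg method. The p-values measure the spread between cultures of one line. Calls needed an adjusted p below 0.05 and 2-fold. The script was tested on simulated data.

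Named were the 12 largest higher and lower called genes whose arrays do not overlap (provisional names passed over), up to 4 members per list with the largest differences, and a set of fixed genes. Members and lists were chosen with earlier results of these data known. Single called members of a list outside this rule (Tbx3, Cxcl12, Actn2, Srgn, Cd34 and Plagl1) were named after their values were seen, as was the added alternative without the replicate 3 arrays of both lines at day 5.

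Replicate numbers are shared between groups, so same-numbered arrays were compared by the correlation of their deviations from the group means. At day 5 this was 0.138, -0.01 and 0.191 for 4F and R1, which does not pair them. At day 0 it was 0.48, 0.252 and 0.328, but 4F replicate 3 and R1 replicate 2 reached 0.398. The other pairs of unlike number at day 0 lay between -0.529 and -0.0859. These values do not settle whether the day 0 arrays are paired by number. The fit of all groups with the replicate number as a block gave 124 higher and 92 lower genes at day 0. Alternatives covered scaling, dim genes, probe set choice, arrays in the fit, trend, weights, the 3′ minus 5′ index, thresholds and leaving out each array.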

Additional observations from a re-analysis of the deposited data

Results flagged for a closer look

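The change from day 0 to day 5 differed between 4F and R1, by a test of the difference itself in limma's fit, for 288 genes in the positive and 375 in the negative direction. Of the genes named above 65 were among these, 22 with a positive and 43 with a negative value. For each of those the value is the 4F change minus the R1 change on the log2 scale.

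Among pluripotency and Nodal genes it was 3.47 for Nr0b1 (R1 -5.63, 4F -2.16), 2.46 for Tcl1, 2.965 for Zfp42, 2.65 for Dppa2, 2.73 for Klf2, 2.77 for Gdf3 and 2.02 for Lefty1. In each of these 7 genes the level dropped further in R1 than in 4F. Germ line genes were Mael at 3.82, Ddx4 at 2.82, Dnmt3l at 2.15 and Stk31 at 1.23. Epiblast genes were Fgf5 at 4.24, with a rise in 4F, Pou3f1 at 2.95 and Sfrp2 at 2.035. Other genes on this side were Mymx at 2.70, Mcf2 at 3.20, Dmrt1 at 2.12, Jam2 at 2.57, Nefm at 2.76, Gadd45a at 1.497, Fabp3 at 1.69 and Actn2 at 1.62.

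On the negative side, receptors of mesoderm and vessels were Nrp1 at -4.45, Pdgfra at -4.96, Pdgfrb at -3.88, Cxcr4 at -3.85, Kdr at -2.755 and Flt1 at -2.13. Nrp1 changed by 2.30 in R1 and by -2.15 in 4F. BMP ligands and targets were Bmp5 at -4.67, Bmp2 at -3.31, Bmp4 at -2.66, Smad6 at -3.33 and Msx2 at -3.05. Heart factors and a troponin were Tbx20 at -4.39, Hand2 at -4.26, Tbx2 at -3.31, Tbx3 at -3.16, Gata6 at -2.61, Hey2 at -2.05 and Tnnc1 at -4.05. Endoderm factors were Sox17 at -5.84 and Foxa1 at -3.58. Vascular and blood factors were Ets1 at -2.62 and Tal1 at -2.125. Other signals were Fgf3 at -3.59, Wnt5a at -3.81, Cfc1 at -1.28 and Vegfa at -2.125. Mesenchymal genes were Snai2 at -4.51, Cdh11 at -4.27 and Fbln2 at -3.31, and Snai2 changed by 2.09 in R1 and by -2.42 in 4F. Growth and imprinted genes were Igf2 at -3.65, Cdkn1c at -2.2, Grb10 at -2.29, Mest at -2.28 and Igfbp4 at -1.66. The others were Tdo2 at -5.29, Capn6 at -4.0, Colec11 at -4.10, Asb4 at -4.025, Pmp22 at -4.095, Plac1 at -3.65, Ndrg1 at -2.35, Jun at -1.85 and Myc at -1.55. The day 5 arrays of both lines enter these values, so they are not independent of the day 5 differences in the report.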

How the results depend on the processing

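Of the 116 called genes named, 60 kept the call under every alternative, 86 kept it whichever of the 6 arrays was left out, and 0 changed direction. Fitting only the arrays compared, which leaves fewer samples to estimate the spread, ended 42 of these calls. It gave 367 lower genes at day 5, 170 and 229 genes with a positive and negative interaction, and 67 higher at day 0. It also takes the spread from those arrays alone, and in some genes 4F at day 5 spread the most. In Aplnr its SD was 3.85 and at most 0.962 in any other group, in Pdgfra 2.61 and 0.714, and in Pmp22 2.69 and 0.557. The main fit pools all groups, so in such genes it took a smaller spread than 4F had at day 5. The mean of probe sets ended 14 and gave 370 lower against R1 and 524 against 3F, and 10 of 63 called genes with several probe sets had one of opposite sign, none 2-fold. With no fold minimum the counts were 1117 and 1156 against R1 at day 5, 1328 and 1779 against 3F, 225 and 166 at day 0, and 1250 and 3257 at day 11. At an adjusted p under 0.01 the interaction counts were 107 and 128 and the day 0 counts 71 and 52. Array weights gave 594 and 1067 for the interaction and 235 and 169 at day 0. The 3′ minus 5′ index as a covariate gave 500 lower against 3F and 547 lower at day 11, and leaving out replicate 3 of all groups gave 1690 lower at day 11. Leaving out single arrays gave 300 to 600 higher and 356 to 820 lower at day 5, 406 to 698 and 600 to 1099 against 3F, 136 to 475 and 158 to 734 for the interaction, 71 to 303 and 59 to 146 at day 0, and 345 to 596 and 739 to 1603 at day 11. The fit with the replicate block gave 430 higher and 594 lower at day 5 and ended no named call.

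Signs that turned were all of uncalled genes. Leaving out single arrays put Eomes between -1.10 and 0.25, Tbx5 between -0.043 and 0.030, Dlk1 between -0.48 and 1.04, Col3a1 between -1.08 and 0.50 and S100a4 between -0.23 and 0.046. Without replicate 3 of both lines, or of all groups, Tbx5 was at 0.015, Col3a1 at 0.40 and S100a4 at 0.0081, and with array weights Tbx5 was at 0.0093. The causes were not tested. Leaving out genes near background kept 14698 genes and ended no named call.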

Other observations

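At day 11 some groups not described above also differed between 4F and R1. Glycolysis and hypoxia genes were higher in 7 of 23 and lower in 0. Visceral endoderm and yolk sac genes were higher in 6 of 28 and lower in 4. Endothelial and hemangioblast genes were lower in 9 of 26, smooth muscle genes in 7 of 14 and fibroblast and feeder genes in 11 of 29, with 2 of the last higher. Over all genes 2.39% were higher and 5.92% lower at that day. Gata3, a factor of trophoblast, was lower in 4F at day 5 (-1.60) and higher at day 11 (1.80), and Vegfa was lower at day 5 (-1.5) and higher at day 11 (1.09). The difference between the days was not tested. Between 3F and R1 embryoid bodies at day 5, 40 genes were higher and 28 lower in 3F.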
